A study of Mus musculus with 6 samples.

Results

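Immune checkpoint and costimulatory ligands are surface or secreted proteins through which a cell that presents antigen tells lymphocytes and phagocytes to respond or to hold back. The 10 genes described here were chosen by name, with earlier results of these data known. Every probe set annotated to exactly 1 of them was read, with the probe set of highest mean standing for the gene. All 10 are among the 18193 single genes on the array, and 8 of them passed a filter on low values and were tested among 12954 genes. Their RNA was measured in cultured mouse lymphatic endothelial cells (LEC) on 6 Affymetrix arrays, 3 of tumour LEC and 3 of normal LEC. Tumour LEC came from C57BL/6 mice that had been injected with T241/VEGF-C/GFP fibrosarcomas (T241 is a mouse fibrosarcoma line, here with VEGF-C, a lymphatic growth factor, and the fluorescent marker GFP). The normal LEC were dermal and were taken from the tails of female C57BL/6 mice aged 8 weeks. The age and sex of the tumour-bearing mice are not given in the sources used here. Per the labels, cells of both groups were cultured in EGM-2 medium on gelatin and selected with LYVE-1 antibodies. The tissues of origin therefore differ as well as the tumour, and the text on the tumour cells is not clear about the later steps. Array titles of the tumour group name tumour cells, whereas the source descriptions name LEC, which is followed here.

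PD-L1 (Cd274) and PD-L2 (Pdcd1lg2) bind PD-1 on T cells and restrain them, and B7-H3 (Cd276) is a relative of both. CD80 and CD86 engage CD28 to costimulate T cells and CTLA-4 to restrain them, the ligand encoded by Icosl engages ICOS, and CD40 receives help from T cells. CD200 restrains myeloid cells, CD47 restrains phagocytosis through SIRPα, and galectin-9 (Lgals9) binds TIM-3. Lymphatic endothelium of lymph nodes is known to carry PD-L1, to present antigen with little costimulation and so to take part in T cell tolerance.

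Promoter sequence is shown for the 3 genes that were above background in both groups and read higher on every tumour array than on any normal array, Cd274, Cd200 and Lgals9, and for Pdcd1lg2, the next protein-coding gene after Cd274 on the same chromosome, which read at background throughout. Each is the stretch of 250 bases before the start site on the gene's own strand, from RefSeq on GRCm38.p6, and 8 of the 10 genes have an entry there. Capitals mark a match, on either strand, to the gamma-activated site TTCNNNGAA, to the interferon-stimulated response element core GAAANNGAA or to the NF-kB consensus.
Cd274, GRCm38.p6 chr19:29367188-29367437, plus strand: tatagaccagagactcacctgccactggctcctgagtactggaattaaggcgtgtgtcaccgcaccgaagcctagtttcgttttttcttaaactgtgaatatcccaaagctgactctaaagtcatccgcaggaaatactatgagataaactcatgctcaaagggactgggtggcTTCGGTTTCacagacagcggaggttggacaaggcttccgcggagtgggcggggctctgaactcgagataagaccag
Pdcd1lg2, GRCm38.p6 chr19:29410669-29410918, plus strand: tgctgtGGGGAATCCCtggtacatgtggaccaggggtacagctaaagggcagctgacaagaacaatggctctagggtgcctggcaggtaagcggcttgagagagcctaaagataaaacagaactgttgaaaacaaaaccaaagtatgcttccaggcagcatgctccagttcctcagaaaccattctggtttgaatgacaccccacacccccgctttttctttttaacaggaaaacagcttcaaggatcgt
Cd200, GRCm38.p6 chr16:45409054-45409303, minus strand: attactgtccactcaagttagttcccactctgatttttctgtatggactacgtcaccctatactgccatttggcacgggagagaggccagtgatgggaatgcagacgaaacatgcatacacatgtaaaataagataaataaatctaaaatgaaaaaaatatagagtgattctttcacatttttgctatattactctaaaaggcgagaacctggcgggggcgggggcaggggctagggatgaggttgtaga
Lgals9, GRCm38.p6 chr11:78984925-78985174, minus strand: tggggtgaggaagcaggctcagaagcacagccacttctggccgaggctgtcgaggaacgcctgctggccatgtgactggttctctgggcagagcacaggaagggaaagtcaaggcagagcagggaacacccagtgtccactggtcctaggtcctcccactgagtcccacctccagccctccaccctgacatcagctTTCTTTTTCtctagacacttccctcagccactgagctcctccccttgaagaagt
Lgals9 held the element core on the minus strand, as TTCTTTTTC at bases 54 to 46 before the start, and Cd274 likewise, as TTCGGTTTC at bases 76 to 68. Such a match is present in 7.13% of the 32851 promoters of that length in the table. With 1 further A at the 3′ end of the core, which was the first form searched, Lgals9 matched and Cd274 did not, and 2.98% of promoters match. Pdcd1lg2 held an NF-kB match, GGGGAATCCC at bases 244 to 235 before the start, a motif found in 7.25% of promoters. Cd200 held none of the 3 motifs in this window, and the gamma-activated site, present in 7.02% of promoters, was found in none of the 9 promoters of these 8 genes, of which Cd47 has 2. A match is a description of the letters and not a binding site.

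Each value is the deposited log2 expression of a probe set. Whether replicates were separate cultures or animals is not said in the labels, so a p-value covers only the spread among the arrays, which may be technical, and the number of arrays limits the precision. A value was called at background when it lay at or below the highest of 27 control probe sets for absent bacterial RNA on the same array, a limit of 3.40 to 3.71. The median over all probe sets was 2.99 to 3.02 on 5 arrays and 3.15 in tumour replicate 3. The lymphatic markers Lyve1, Prox1, Pdpn and Flt4 were above background on every array. Mmrn1, of the same list, was at background on all 6 arrays, at 2.79 to 3.30. The mean over the 7 measured lymphatic markers was 9.94 to 10.38 in normal and 10.03 to 10.57 in tumour LEC. The mean over 8 general endothelial markers was 8.66, 9.47 and 9.93 in normal replicates 1 to 3 and 10.58, 9.83 and 10.20 in tumour replicates 1 to 3. The groups overlapped in this mean, and the median difference of these markers was 0.91. Of the 8 differences 7 were above 0, and 0 passed the test. Of these markers 2 were higher on every tumour array and 0 lower, against 20.9% and 11.6% of all genes tested. The mean of the endothelial markers was lowest in normal replicate 1, though single markers were lowest on other arrays. The part of endothelial RNA in the differences of the ligand genes was not tested. Markers of other cells were not even across arrays either. The mean over 9 fibroblast markers reached 11.25 in normal replicate 1. Normal replicates 2 and 3 had means of 8.33 and 8.34, against 4.71 to 5.21 across the tumour arrays, with 5 to 8 of the 9 above background on the tumour arrays. The median difference of the 9 was -4.41. On every tumour array 7 were lower and 1 was higher, against 11.6% and 20.9% of all genes tested. Col1a2 passed the test, at -9.38 (limma adjusted p = 0.0276), and Pdgfra differed by -5.03 (limma adjusted p = 0.0828). The mean over 15 macrophage and dendritic cell markers reached 6.13 in tumour replicate 1. It was 4.63 in tumour replicate 2, 4.23 in tumour replicate 3 and 4.46 to 5.25 across the normal arrays, with 7 to 9 of the 15 above background. Ptprc, the pan-leukocyte antigen CD45, was above background only in tumour replicate 1, at 5.92, and Itgax, the dendritic cell integrin CD11c, was at background on all 6 arrays. Adgre1, the macrophage antigen F4/80, read 5.77 in tumour replicate 1 and 3.88 to 4.71 elsewhere. Cd68, another macrophage marker, was above background on all 6 arrays. It read 8.56, 8.45 and 9.57 in normal replicates 1 to 3 and 10.88, 7.90 and 4.82 in tumour replicates 1 to 3. Of the 10 tested markers of this list 7 had a difference above 0, and 0 passed the test. In such bulk samples fewer cells of a type and less RNA per cell cannot be told apart.

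None of the 8 tested ligand genes differed past the threshold between the groups (limma, Benjamini-Hochberg adjusted p under 0.05), against 0.216% of all genes tested. Without adjustment 2 of the 8, Cd200 and Lgals9, had a p under 0.05, against 15.5% of all genes. For 5 of the 8 all tumour arrays lay on the same side of all normal arrays, 4 higher and 1 lower, against 32.4% of all genes tested, 20.9% higher and 11.6% lower. Of the 4 higher genes 1, Icosl, was at background on all arrays, where the background itself read higher in tumour LEC. The 8 tested genes had differences from -1.16 to 2.37 with a median of 0.25, and 6 of the 8 were above 0. Without Cd80 and Icosl, the 6 genes above background in both groups had differences from -0.05 to 2.37. Their median was 0.57, and 5 of the 6 were above 0. Over the 10431 genes above background on some array of each group the median was -0.03 and 46.9% were above 0, and over all genes tested 0.03 and 53.1%. As the ligand genes were chosen with earlier results of these data known, nothing is read from these counts and medians.

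**Figure D1:**
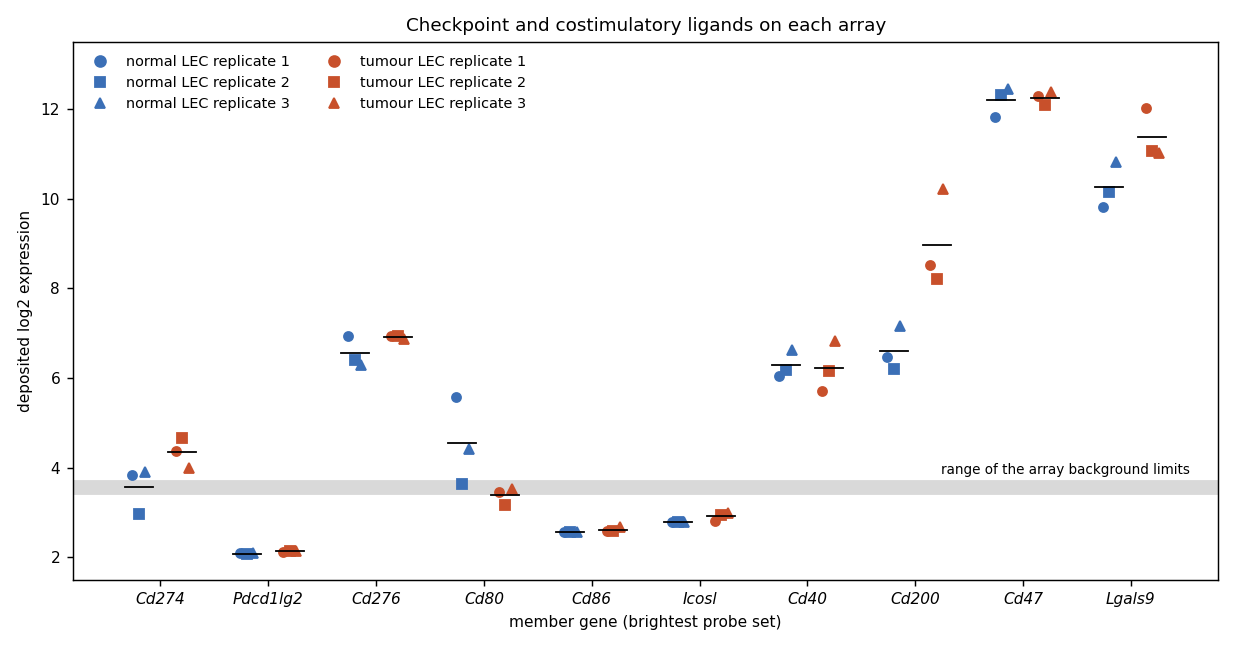
Deposited log2 expression of the 10 ligand genes (x axis) on each array, with normal LEC in blue, tumour LEC in orange, a symbol for each replicate and a bar at each group mean; the grey band is the range of the background limits, 3.40 to 3.71. Pdcd1lg2, Cd86 and Icosl lie below the band on every array, Cd200 and Lgals9 lie higher on every tumour array, and Cd80 lies above the limit on normal arrays only. Heights of different genes are not comparable, since each probe set has its own response.

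Among the inhibitory B7 family genes, Cd274 was dim and Pdcd1lg2 was not detected. Cd274, which encodes PD-L1, read 3.84, 2.97 and 3.91 in normal replicates 1 to 3 and 4.38, 4.66 and 3.99 in tumour replicates 1 to 3. All tumour arrays were above all normal arrays, by 0.07 at the nearest pair, and normal replicate 2 was at background. The means were 3.58 ± 0.53 and 4.34 ± 0.34 (SD, n = 3), a difference of 0.77 (SE 0.32, 95% interval -0.03 to 1.56, limma adjusted p = 0.334). With the value at background raised to the limit of its array, the tumour mean was 1.51-fold higher, a figure for these arrays that leaves out their spread. The difference was 0.46 without normal replicate 2, the array with the lowest value. The mean of the macrophage markers was highest in tumour replicate 1 and Cd274 in tumour replicate 2, and without tumour replicate 1 the difference was 0.75. Whether macrophage RNA had a part in the Cd274 values was not tested.

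Pdcd1lg2, which encodes PD-L2, read 2.06 to 2.10 in normal and 2.11 to 2.15 in tumour LEC, at background on all 6 arrays, and did not pass the filter on low values. A single probe set reads each of these neighbouring genes, so a second reading was not available here. Cd276, which encodes B7-H3, read 6.94, 6.41 and 6.30 in normal replicates 1 to 3 and 6.95, 6.94 and 6.87 in tumour replicates 1 to 3. The tumour arrays were close together and overlapped normal replicate 1, while the other normal arrays were lower. The difference was 0.37 (SE 0.19, 95% interval -0.11 to 0.85, limma adjusted p = 0.412). Leaving out normal replicate 1, where fibroblast markers peaked, gave 0.56, and leaving out normal replicate 3 gave 0.24. The part of fibroblast RNA in the Cd276 values was not tested.

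Of the costimulatory genes only Cd80 and Cd40 were above background anywhere. Cd80, whose product binds CD28 and CTLA-4, read 5.58, 3.64 and 4.41 in normal replicates 1 to 3 and 3.46, 3.17 and 3.51 in tumour replicates 1 to 3. It was above background on all normal arrays and at background on all tumour arrays, so the groups did not overlap. The difference was -1.16 (SE 0.49, 95% interval -2.39 to 0.06, limma adjusted p = 0.341). With the tumour values raised to the limits of their arrays, the tumour mean was 1.96-fold lower, a figure for these arrays that leaves out their spread. The highest value was in normal replicate 1, where fibroblast markers peaked too, and the difference was -0.65 without it. The part of other cells in this signal was not tested. The other 3 probe sets of Cd80 were at background on all arrays and differed by 0.02 to 0.05, so the reading rests on a single probe set.

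Cd86, the other ligand of CD28 and CTLA-4, was at background on all 6 arrays by both of its probe sets, at 2.56 to 2.68 for the brighter. The dimmer read 3.19 in tumour replicate 1, where macrophage markers were highest, and 2.32 to 2.44 elsewhere, all below the limits. Icosl read 2.79 to 2.80 in normal and 2.82 to 2.99 in tumour LEC, also at background. The groups did not overlap, and the difference was 0.12 (SE 0.10, limma adjusted p = 0.557). Signal of this size in background probe sets has no reading as expression.

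Cd40, a receptor of the TNF receptor family on antigen-presenting cells and endothelium, read 6.04, 6.17 and 6.63 in normal replicates 1 to 3. It read 5.71, 6.15 and 6.83 in tumour replicates 1 to 3, and the groups overlapped. The difference was -0.05 (SE 0.33, 95% interval -0.87 to 0.76, limma adjusted p = 0.937), an interval that leaves room for a change of either sign. A further probe set gave 0.25, and the sign of the difference turned in 5 of 15 alternative settings. Tumour replicate 1, with the highest mean of the macrophage markers, had the lowest Cd40 value of the 6 arrays. The part of other cells in the Cd40 values was not tested.

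Cd200 had the largest difference of the 8 tested ligand genes. It read 6.47, 6.19 and 7.16 in normal replicates 1 to 3 and 8.51, 8.22 and 10.20 in tumour replicates 1 to 3. Every tumour array was above every normal array, with tumour replicate 3 well above the other tumour arrays. The means were 6.61 ± 0.50 and 8.98 ± 1.07 (SD, n = 3), a difference of 2.37 or 5.17-fold (SE 0.58, 95% interval 0.92 to 3.82, limma unadjusted p = 0.00765, adjusted p = 0.174). Without tumour replicate 3 the difference was 1.76, and over the alternatives it ran from 1.71 to 2.75 with adjusted p from 0.0883 to 0.412. Tumour replicate 3 had the lowest mean of the macrophage markers, 4.23, and the highest Cd200. The mean of the endothelial markers was highest in tumour replicate 1, at 10.58. Within both lists single markers peaked on different arrays, and the part of either cell type in the Cd200 difference was not tested.

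Lgals9, which encodes galectin-9, read 9.81, 10.15 and 10.81 in normal replicates 1 to 3 and 12.01, 11.07 and 11.01 in tumour replicates 1 to 3. The groups did not overlap, with a gap of 0.20 between the nearest arrays. The means were 10.26 ± 0.51 and 11.36 ± 0.56 (SD, n = 3), a difference of 1.11 or 2.16-fold (SE 0.38, 95% interval 0.16 to 2.06, limma unadjusted p = 0.0294, adjusted p = 0.273). The highest value was in tumour replicate 1, where macrophage markers peaked too, and the difference was 0.78 without it. With normal replicate 1 left out as well it was 0.56. The part of macrophage RNA in the difference was not tested.

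Cd47, whose product signals to SIRPα on phagocytes, read 11.81, 12.32 and 12.44 in normal replicates 1 to 3 and 12.28, 12.08 and 12.38 in tumour replicates 1 to 3. The groups overlapped, and the difference was 0.06 (SE 0.20, 95% interval -0.44 to 0.56, limma adjusted p = 0.881). Changes larger than 0.56 in size thus lie outside the interval of this probe set. The other 4 probe sets differed by -0.06 to -0.54, and the sign of the gene's difference turned in 7 of 16 alternative settings, so no direction is given.

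**Figure D2:**
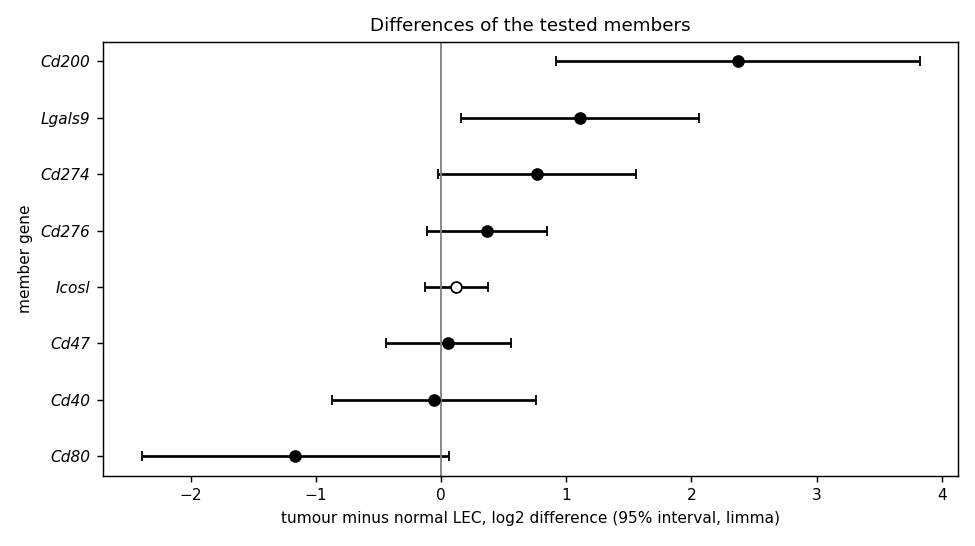
Tumour minus normal log2 difference of the 8 tested ligand genes (x axis) with 95% intervals from the limma fit; the open circle is Icosl, at background on all arrays. The intervals of Cd200 (0.92 to 3.82) and Lgals9 (0.16 to 2.06) lie above 0 before adjustment over genes, and the other 6 include 0.

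The receptors of these ligands were mostly at background. Of 9 receptor genes 4 passed the filter on low values, 0 passed the test, and their median difference was -0.37. With no filter on low values the median was 0.051, and it was -0.72 without tumour replicate 1 and -0.15 without tumour replicate 3, so no direction is given for the list. Pdcd1, Cd28, Ctla4, Icos and Cd40lg, all genes of T cells, did not pass the filter. Havcr2, which encodes the galectin-9 receptor TIM-3, read 3.68, 3.92 and 4.84 in normal replicates 1 to 3 and 2.74, 3.28 and 2.89 in tumour replicates 1 to 3. It was at background on all tumour arrays, and the difference was -1.17 (SE 0.34, limma adjusted p = 0.223). With the tumour values raised to the limits of their arrays, the tumour mean of Havcr2 was 1.49-fold lower on these arrays. Rgmb, a PD-L2 binding protein, differed by -0.60 (SE 0.32), by -0.91 without tumour replicate 1, by -0.38 with quantile normalization and by -0.23 with the mean of its probe sets. Cd200r1, the receptor of CD200, read 3.33 to 3.42 in normal LEC and 3.49 to 3.65 in tumour LEC, above the limit on 2 tumour arrays by a narrow margin. Sirpa, the CD47 receptor, read 6.56 to 7.31 in normal and 6.10 to 7.59 in tumour LEC.

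Other checkpoint and costimulatory ligands went both ways. Of 22 listed genes 11 were tested, 0 passed, 5 were above 0 and the median difference was -0.15. The median turned to 0.034 with no filter on low values, 0.032 without normal replicate 3 and 0.051 without tumour replicate 3, and was -0.33 without tumour replicate 1, so the list has no settled direction. Pvr and Nectin2, whose products bind DNAM-1 and TIGIT on lymphocytes, had the largest positive differences. Pvr read 9.71, 10.28 and 10.12 in normal replicates 1 to 3 and 10.76, 11.51 and 12.20 in tumour replicates 1 to 3, a difference of 1.46 (SE 0.39, limma adjusted p = 0.200). Nectin2 read 9.84 to 10.46 in normal and 10.73 to 11.66 in tumour LEC, a difference of 1.12 (SE 0.29, limma adjusted p = 0.193), or 0.69 with array weights. Nectin3, an adhesion molecule of the same family, lay the other way, at -0.60 (SE 0.20, limma adjusted p = 0.255). For each of these 3 genes the groups did not overlap. Of the 11 tested genes 3 were higher on every tumour array and 2 lower, against 20.9% and 11.6% of all genes tested. Over all genes tested 53.1% were above 0.

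The route from interferon gamma to PD-L1 had 13 tested genes of 15 listed. None passed, 9 were above 0, 5 were higher on every tumour array and none was lower on every one, and the median difference was 0.27, or 0.41 without normal replicate 3. Over all genes tested 53.1% were above 0, 20.9% were higher on every tumour array and 11.6% lower. This list was also chosen with earlier results of these data known, so nothing is read from its counts. Cmtm6, a membrane protein that keeps PD-L1 at the cell surface, read 9.03, 9.42 and 9.60 in normal replicates 1 to 3. It read 10.33, 10.46 and 10.47 in tumour replicates 1 to 3, a difference of 1.07 (SE 0.17, limma adjusted p = 0.0863). The tumour arrays were close together and all above the normal arrays. Suffixed probe sets are here those with names ending in _a_at or, prone to cross-hybridization, in _s_at or _x_at. Without suffixed probe sets the Cmtm6 difference was 0.73 (limma adjusted p = 0.346). With the mean of its probe sets it was 0.90 (limma adjusted p = 0.183). Nlrc5, a transactivator of MHC class I genes, read 5.32, 2.89 and 5.15 in normal replicates and 7.71, 7.73 and 8.52 in tumour replicates, a difference of 3.54 (SE 0.70, limma adjusted p = 0.122). Like Cd274, it was at background in normal replicate 2 only. Ifngr1, a chain of the interferon gamma receptor, differed by 0.67 (SE 0.19, limma adjusted p = 0.220).

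All 9 MHC class I presentation genes, chosen with their earlier results known, were higher on every tumour array, against 20.9% of all genes tested, and none passed, against 0.216%. Since the list was chosen with these results known, nothing is read from that count. Their median difference was 2.05, and the mean over them was lowest in normal replicate 2, at 8.04. Normal replicates 1 and 3 had means of 9.35 and 9.16, against 10.58 to 11.14 across the tumour arrays. Normal replicate 2 was also the array with the lowest Cd274 and Cd200. H2-D1, a classical heavy chain, differed by 2.22 (SE 0.26, limma adjusted p = 0.0577), or 1.42 with the mean of probe sets. H2-K1, another classical heavy chain, differed by 2.05 (SE 0.30, limma adjusted p = 0.0787). Both were read by probe sets with names ending in _x_at. Without suffixed probe sets H2-D1 differed by 2.12 (limma adjusted p = 0.0225), and H2-K1 had no probe set to test. Psmb9, an immunoproteasome subunit, differed by 3.23 (SE 0.46, limma adjusted p = 0.0778).

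CD40 and NF-kB signalling had 14 tested genes of 18 listed, 0 past the test, 10 above 0 and a median difference of 0.28, or 0.18 with the mean of probe sets. Traf1, an adaptor of TNF receptor family members, read 4.15, 3.32 and 3.63 in normal replicates 1 to 3. It read 4.17, 4.74 and 4.36 in tumour replicates 1 to 3, a difference of 0.72 (SE 0.27, limma adjusted p = 0.293). Traf6, a ubiquitin ligase of the same pathway, differed by 0.43 (SE 0.17), or 0.18 with the mean of its probe sets, and Birc2, an inhibitor of apoptosis bound by TRAF proteins, by 0.50 (SE 0.22). The groups did not overlap for Traf1 and Traf6, and overlapped for Birc2 and for the receptor Cd40 itself. Of the 14 genes 2 were higher on every tumour array and 0 lower, against 20.9% and 11.6% of all genes tested. Over all genes tested 53.1% of the differences were above 0.

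The CD47 list held its ligands, its receptor, proteins that bind it or modify it, and calreticulin (Calr). Of its 7 genes all were tested, 0 passed and 5 were above 0, against 53.1% of all genes tested. On every tumour array 2 were higher and 0 lower, against 20.9% and 11.6%. The median difference of the list was 0.19. It was 0.29 without tumour replicate 1, 0.38 without tumour replicate 3, 0.43 with quantile normalization and 0.74 without suffixed probe sets. Thbs1, which encodes thrombospondin-1, a secreted ligand of CD47, read 8.78 to 9.91 on the normal arrays. It read 11.19, 11.75 and 12.37 in tumour replicates 1 to 3, all above the normal arrays, a difference of 2.54 (SE 0.42, limma adjusted p = 0.0892). Itgb3, the integrin beta chain associated with CD47, read 9.72 to 10.92 in normal and 11.65 to 11.72 in tumour LEC, a difference of 1.28 (SE 0.31, limma adjusted p = 0.173). Thbs2, a related thrombospondin, overlapped between the groups, at 1.34 (SE 0.85), at 0.57 without normal replicate 2 and at 0.74 without tumour replicate 1.

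**Figure D3:**
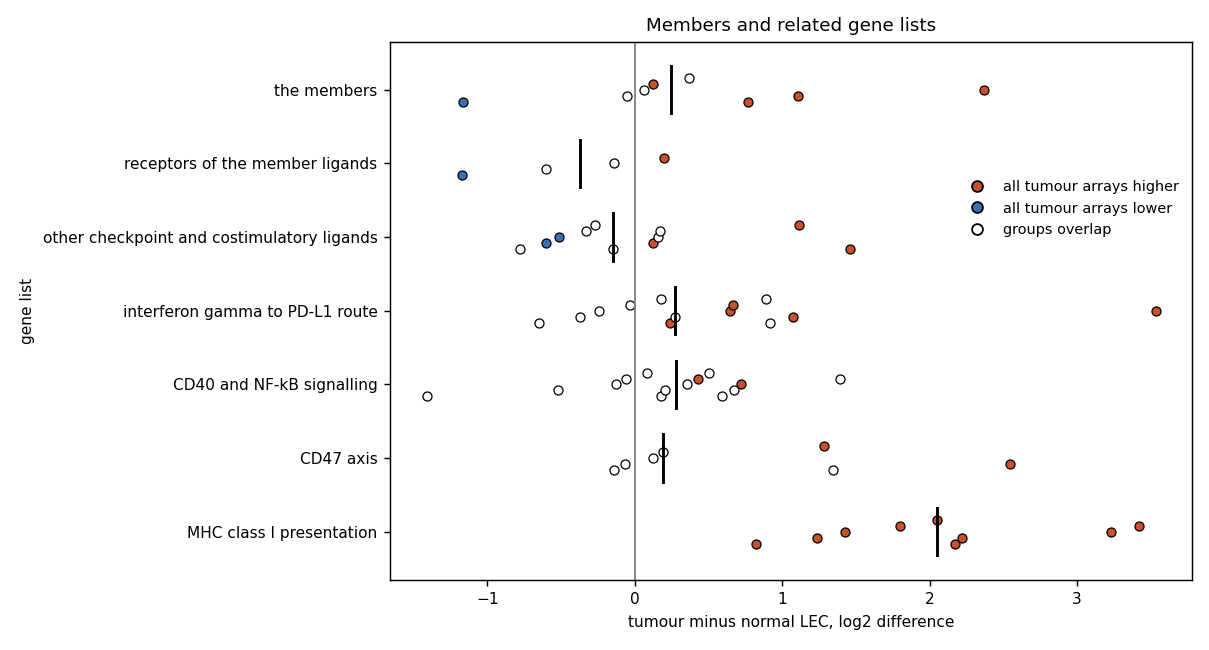
Tumour minus normal log2 difference (x axis) of each tested gene in the members and 6 related lists; filled points are genes whose 3 tumour arrays all lie above (orange) or below (blue) the 3 normal arrays, open points overlap, and black bars are list medians. All 9 MHC class I genes lie right of 0, while the other ligands spread to both sides of a median of -0.15, whose sign turned under some settings. No gene shown passed the test.

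The ligand genes did not rank the arrays alike. Cd274 was highest in tumour replicate 2, Cd200 in tumour replicate 3, Lgals9 in tumour replicate 1 and Cd80 in normal replicate 1. Over the 6 arrays, which share the difference between groups and the common processing, the genes closest in pattern to Cd200 by Pearson correlation among 10477 genes were Ate1 (0.996) and Psmd10 (0.994). For Lgals9 they were Ly96 (0.992) and Acad11 (0.990), for Cd274 Slc6a3 (0.991) and Acadvl (0.980), and for Cd80 Aldh1a1 (0.991) and Kazald1 (0.989). Cd40 was closest to Cwc22 (0.997) and Senp6 (0.987), Cd47 to Gap43 (0.982) and Hspa12b (0.972), and Cd276 to Timm29 (0.978) and Golga2 (0.973). With 6 arrays many genes reach such values: 334 exceeded 0.9 for Cd200 and 30 for Cd276.

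**Figure D4:**
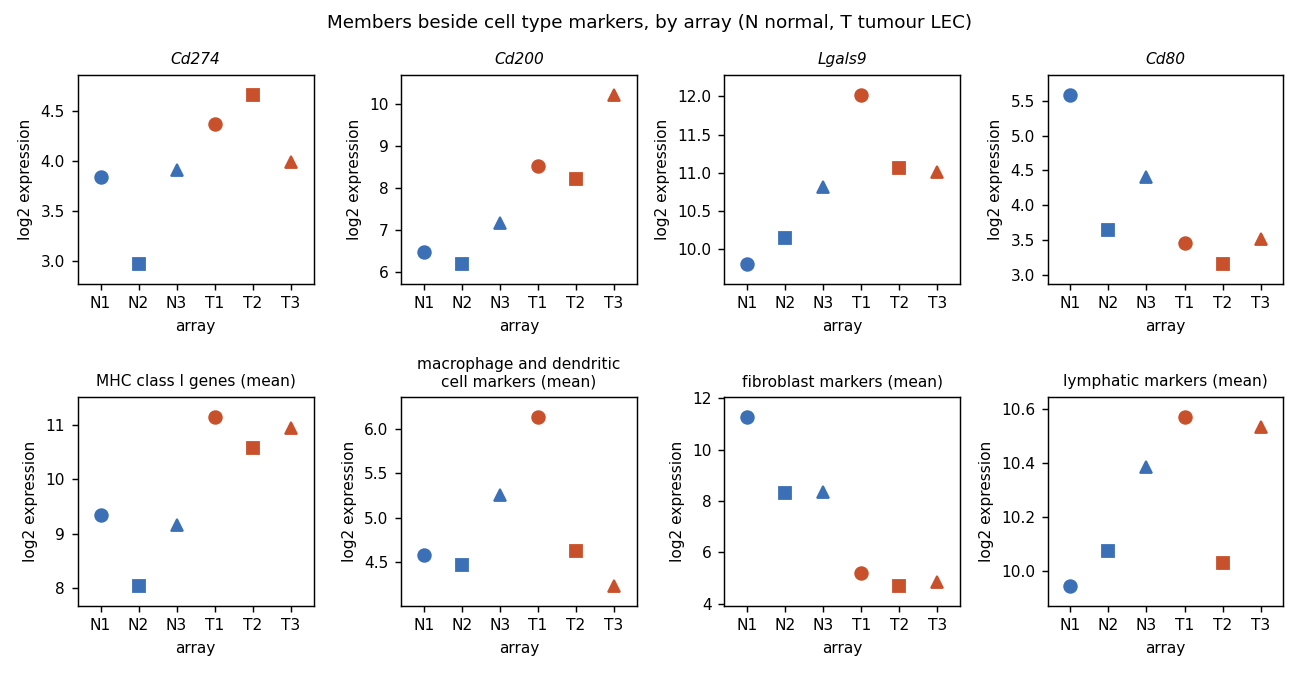
Log2 expression (y axes, each with its own range) of 4 ligand genes and the mean of 4 gene lists on each array, with normal arrays N1 to N3 in blue and tumour arrays T1 to T3 in orange. Lgals9 and the macrophage markers are both highest in T1, Cd80 and the fibroblast markers are both highest in N1, and Cd274 and the MHC class I mean are both lowest in N2.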

How the data were processed

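RNA from 6 arrays was labelled per the labels' protocols from 50 ng of total RNA with a kit that amplifies small amounts. The authors deposited log2 values, a single value for each probe set and array. RMA and GCRMA are named by the submitters' processing notes, with no word on which of them made the values. Since GCRMA pulls dim probe sets to a floor, differences of dim genes such as Cd274 and Cd80 are hard to interpret. No scanner files were used here.

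Of 45101 probe sets 34945 were annotated to a single gene by GEO's platform annotation. Probe sets with a mean above the 40th percentile (2.71) were kept, and the brightest probe set stood for each of 12954 genes. R 4.3.3 and limma 3.58.1 (lmFit, eBayes) compared 3 tumour with 3 normal arrays, two-sided, adjusted over all genes tested. No exact permutation test was run, because 3 arrays against 3 allow no p below 0.1. The steps were tested on simulated data. Members and lists were chosen with earlier results of these data known. Of each of 6 related lists the 3 genes with the smallest p were named, as none passed, and for each ligand gene the 2 closest in pattern. Marker genes were named from a fixed list, of which Pecam1 and Cdh5 are given only within the endothelial mean. Sirpa, Mmrn1, Calr and the T cell receptors were named after their values were seen. Of 142 listed genes 134 were read by a probe set of their own, and the others were not analysed here. The alternatives were 15 settings, plus leaving out normal and tumour replicate 1 together, added after seeing the data.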

Additional observations from a re-analysis of the deposited data

How the results depend on the processing

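Of the 8 tested ligand genes 0 passed in any of the settings that could be run for them, and Cd274, Cd276, Cd80, Icosl, Cd200 and Lgals9 kept their sign in each. Cd274, Icosl and Cd80 had no probe set to test under the 60th percentile filter, nor did Cd80, Cd40 and Lgals9 without suffixed probe sets. Cd40 turned to 0.15 with quantile normalization, 0.10 with the mean of probe sets and 0.089 with normal and tumour replicate 1 left out together, and with single arrays left out it ran from -0.35 to 0.21. Cd47 turned to -0.0056 with median centring, -0.10 with array weights and -0.23 with the mean of probe sets. It was -0.27 without suffixed probe sets and -0.15 with normal and tumour replicate 1 left out together. With single arrays left out it ran from -0.13 to 0.18. The cause was not tested. The count of genes past the threshold was 28, but 10 with no filter, 97 with a 60th percentile filter, 385 with array weights, 49 with normal and tumour replicate 1 left out together and 4 to 82 with single arrays left out. With the replicate number as a block 46 passed. The numbers were not shown to pair the arrays, since the deviations from the group means of same-numbered arrays correlated at 0.19, 0.33 and -0.0038 across genes.

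Among the related lists, array weights gave 1 gene past the threshold in the CD47 list, the interferon gamma list and the other ligands (Thbs1, Cmtm6 and Pvr) and 3 of the MHC class I genes. For the MHC class I genes the count was also 3 with the 60th percentile filter, and 0 to 1 with single arrays left out. It was 1 each with an intensity trend, without suffixed probe sets and under the replicate block. The replicate block added 1 gene of the CD47 list, Thbs1. The median of the CD47 list was 0.74 without suffixed probe sets. That of the receptors was 0.051 with no filter, where more genes were included, and -0.72 to -0.15 with single arrays left out. The MHC class I median ran from 1.64 to 2.35 with single arrays left out. Signal over background limits Cd274, Cd80, Havcr2 and Traf1, which lie close to the limit on some arrays.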
